A study of Macaca fascicularis with 25 samples.

Results

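The levels of 10 Ensembl identifiers of the cynomolgus monkey, ENSMFAG00000038514, ENSMFAG00000032376, ENSMFAG00000045520, ENSMFAG00000035328, ENSMFAG00000038360, ENSMFAG00000000240, ENSMFAG00000045818, ENSMFAG00000042321, ENSMFAG00000004007 and ENSMFAG00000040803, were followed across 25 bulk RNA-seq libraries of embryos. The 10 identifiers were picked from these same data because every one of them was higher in the 3 hypoblast libraries than in the 6 exmc libraries, with no overlap between the groups. They are 10 of the 28592 identifiers in the deposited table, of which 24618 were above 0 in 1 library or more. The series concerns monkey embryos cultured in vitro, and its stated aim is to find what directs embryonic and extra-embryonic lineages. Populations of about 20 cells were cut from cryosections of embryos with decidua by laser microdissection and sequenced with the Smart-seq2 low-input method. No genotype, strain or treatment is given for any group. A region label is given for the 16 libraries of Day 18: 3 hypoblast, 6 exmc, 3 epiblast and 4 others. There is 1 library of Day 16, and 8 are of Day 20, in sets of 4 titled E20_1 and E20_2, all without a region label. The labels do not say what others, E20_1 or E20_2 stand for. Whether libraries came from separate embryos is not stated either, so p-values measure the spread between captured populations. They are too small wherever populations of the same group share an embryo. Populations of different groups that share an embryo would form pairs, which the main tests do not use.

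In the primate embryo the epiblast gives rise to the body of the embryo, while the hypoblast, or primitive endoderm, forms the layer beneath it and lines the yolk sac. Genes expressed in one of these tissues and not in the neighbouring extra-embryonic tissue are the usual means of telling such regions apart. The deposited table pairs no identifier with a gene name, and none of its 28592 identifiers matched the RefSeq gene table at hand (0 matches). The function of the 10 identifiers is therefore not given here, and the region labels could not be checked against marker genes. No sequence of these identifiers was at hand. In captured populations, fewer cells of a type and less RNA per cell cannot be told apart.

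Total counts ranged from 2909114 to 10462278 per library. The hypoblast libraries held 7386086 to 10462278 counts and the exmc libraries 2909114 to 6757471, so the groups that chose the identifiers also differed in depth without overlap. Identifiers with a count above 0 numbered 15238 to 16162 in hypoblast and 11777 to 18034 in exmc. The Day 16 library was shallow, with 4348127 counts and 12759 detected identifiers. The part of depth in the choice of the identifiers was not tested. Levels below are in CPM, in which each library's counts are divided by its size, here with library sizes scaled by the trimmed mean of M-values (TMM) over all 25 libraries. They are not divided by gene length, so levels are compared between libraries and not between identifiers. The fewest counts of any of the 10 identifiers in any library was 58.

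In the groups that chose them, the identifiers were 2.78-fold (ENSMFAG00000000240) to 6.18-fold (ENSMFAG00000045818) higher in the mean of hypoblast than in the mean of exmc. These values are those of the choice and carry no test. The choice is not a rare pattern: 307 of 7551 identifiers whose mean over the 9 libraries reached 20 CPM were higher in hypoblast without overlap (4.07%), and 70 were lower without overlap. Most of the 10 identifiers lie towards the wide end of those 307. Their median ratio of the lowest hypoblast to the highest exmc library was 1.44, against 1.15 over all 307, and their median fold was 3.24, against 2.21. By this ratio ENSMFAG00000040803 (1.11) and ENSMFAG00000045818 lay below the median of the 307. ENSMFAG00000045818 was the closest of the 10 to the threshold, at rank 248 of the 307 from the widest. It had 152 CPM in the lowest hypoblast and 144 CPM in the highest exmc library. Of all identifiers that failed the choice, the closest to the threshold was ENSMFAG00000039373, with 95.3 and 95.4 CPM. For ENSMFAG00000045818 the ratio of 1.05 came down to 1.01 when levels were scaled by total counts alone.

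The level of ENSMFAG00000045520 was 599.9, 1824 and 678 CPM in hypoblast libraries 1 to 3. In exmc its lowest, median and highest levels were 94.8, 297 and 354 CPM. Hypoblast library 2 stood well above the other 2 hypoblast libraries, and none overlapped with exmc. ENSMFAG00000038514 stood at 305, 631 and 425 CPM in hypoblast and at 67.0, 136 and 188 CPM (lowest, median, highest) in exmc. Hypoblast library 1 was the lowest and library 2 the highest hypoblast library for all 10 identifiers. In exmc, library 3 was the lowest for 8 and library 2 the highest for 8. The identifiers thus share the order of the libraries, and 10 of them do not amount to 10 independent observations.

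**Figure D1:**
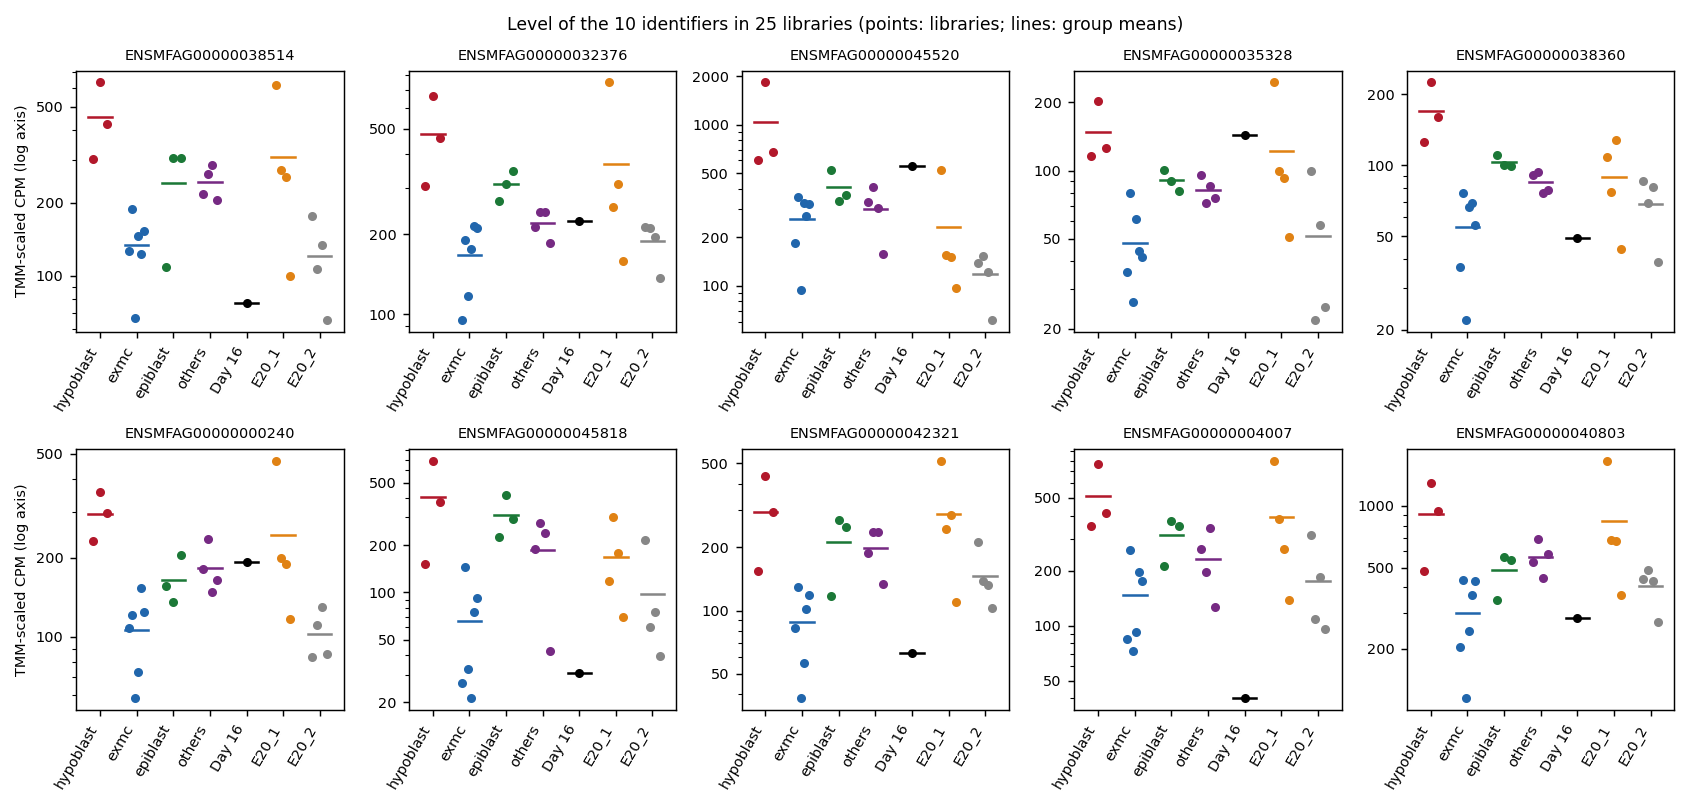
TMM-scaled CPM (log axis) of each of the 10 identifiers, 1 panel each, in the 25 libraries; points are libraries and lines are group means. Hypoblast lies above exmc in every panel because that chose the identifiers, and the Day 20 set E20_1 holds the widest spread in most panels.

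The 16 libraries that did not enter the choice were most often in the exmc range, and next most often between the groups. Of 160 values (10 identifiers in 16 libraries), 62 (38.8%) lay within the range of the exmc libraries, 51 (31.9%) between the highest exmc and the lowest hypoblast library, and 36 (22.5%) within the hypoblast range. Another 5 (3.12%) lay below every exmc library and 6 (3.75%) above every hypoblast library. For all 307 identifiers the shares were 49.1%, 17%, 22.8%, 2.95% and 8.1% in the same order. The space between the groups is also wider for the 10 identifiers than for the 307, by the ratios given above.

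In epiblast the 10 identifiers were mostly above the exmc range. Of 30 values, 12 lay between the groups, 12 within the hypoblast range and 6 within the exmc range (40%, 40% and 20%, against 20%, 35.4% and 40.2% for the 307). ENSMFAG00000045818 was at 226, 417 and 295 CPM in epiblast libraries 1 to 3, where all 3 lay within the hypoblast range of 152 to 687 CPM. ENSMFAG00000038360 was at 110.4, 99.8 and 99.1 CPM, where all 3 lay above the highest exmc library (76.2 CPM) and below the lowest hypoblast library (125 CPM). ENSMFAG00000038514 divided the group, with 109 CPM in library 1 and 307 and 309 CPM in libraries 2 and 3. Epiblast library 3 had all 10 identifiers above the highest exmc library, library 2 had 8 and library 1 had 6. Of the 307 identifiers that pass the same choice, 76.9%, 61.9% and 37.8% lay above it in libraries 3, 2 and 1, so the order of the 3 libraries is shared with them.

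In the others group, 18 of 40 values lay between the groups, 12 within the exmc range and 10 within the hypoblast range. These are 45%, 30% and 25%, against 21.5%, 48.9% and 24.8% for the 307, so the share in the hypoblast range was nearly the same. ENSMFAG00000042321 was at 187, 235, 236 and 133 CPM in others libraries 1 to 4, all above the highest exmc library (129 CPM). ENSMFAG00000045818 was at 189, 275, 238 and 42.2 CPM, so library 4 alone fell in the exmc range. Others library 4 held the lowest value of the group for 6 of the 10 identifiers. Its total of 6452562 counts lay between those of others libraries 3 and 1. The deepest others library, with 8875456 counts, had 4 of the 10 at or above the lowest hypoblast library, where 45% of the 307 stood.

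Whether the identifiers differed between epiblast and others was tested with edgeR over the 15 libraries of epiblast, others, E20_1 and E20_2. None of the 10 passed, and every adjusted p was 1. Over all 16045 identifiers tested, 0 passed the adjusted threshold of 0.05 (0%), with 826 at an unadjusted p under 0.05, and limma also passed 0. DESeq2, which tested 23092 identifiers, passed 54. None of the 10 passed with DESeq2 or limma either. A lower mean in others was found for 7 of the 10 and for 7442 of the 16045 identifiers. The count among the 10 ran from 6 to 9 when single libraries were left out. The median log2 fold change of the 10 was −0.21, while the median over all identifiers was 0.06. The largest difference was −0.75 (SE 0.632, edgeR adjusted p = 1) for ENSMFAG00000045818. ENSMFAG00000032376 read 267, 311 and 348 CPM in epiblast against 214, 243, 243 and 186 CPM in others, which did not overlap. Its difference was −0.48 (SE 0.399). The levels of ENSMFAG00000038360 in others were 90.7, 93.7, 76.1 and 78.8 CPM, also below all 3 epiblast libraries, with a difference of −0.28 (SE 0.349). Such separation, with others lower, was found for 207 of 7140 identifiers (2.90%). The standard errors of the 10 log2 fold changes ran from 0.349 to 0.632, so differences of that size were not detectable with 3 and 4 libraries.

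Among the 16 libraries outside the choice, 8 of them of Day 20, the highest level was at Day 20 for 8 of the 10 identifiers. The exceptions were ENSMFAG00000045520 (Day 16) and ENSMFAG00000045818 (epiblast library 2). Apart from ENSMFAG00000038360 (E20_1 library 3), these Day 20 maxima all fell in E20_1 library 1. In that library 80.1% of the 307 were at or above the lowest hypoblast level. The share of all identifiers highest at Day 20 was not counted. ENSMFAG00000040803 was at 1664, 678, 678 and 365 CPM in E20_1 libraries 1 to 4 and at 438, 485, 429.5 and 271 CPM in E20_2. ENSMFAG00000038514 was at 616, 273, 255 and 100.1 CPM in E20_1 and at 177, 107, 133 and 65.7 CPM in E20_2. ENSMFAG00000000240 was at 471, 200.3, 190.3 and 117 CPM in E20_1 and at 83.7, 110.5, 129.8 and 85.7 CPM in E20_2. For each of these 3 identifiers E20_1 library 1 was far above the rest, E20_1 library 4 was the lowest of its set and the sets overlapped. E20_1 library 1 exceeded every hypoblast library for 6 of the 10 identifiers, ENSMFAG00000032376, ENSMFAG00000035328, ENSMFAG00000000240, ENSMFAG00000042321, ENSMFAG00000004007 and ENSMFAG00000040803. Over the 4 E20_1 libraries, 15% of the values of the 10 lay above every hypoblast library, against 22.1% for the 307. This is therefore not particular to the 10. An exception in E20_1 library 1 was ENSMFAG00000045818, whose 118 CPM lay within the exmc range and below E20_1 libraries 2 and 3 (301 and 179 CPM). E20_1 library 4 had all 10 identifiers within the exmc range. E20_2 library 4 had 7 within it and 3 below it. In these libraries 28% and 10.1% of the 307 lay above the highest exmc library.

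The deepest Day 20 libraries were not those with the highest levels. E20_1 library 4 (7716897 counts) and E20_2 library 4 (7925822 counts) were deeper than hypoblast library 1 (7386086 counts) and had none of the 10 at or above the lowest hypoblast level. E20_2 library 3, with 8522283 counts, also had none there. E20_1 library 1, with 8312866 counts, had 7. E20_1 library 2 was the deepest of the Day 20 libraries, with 9114870 counts, and had 4. The shares of the 307 at or above that level moved in the same order: 14.7%, 5.86%, 14%, 80.1% and 47.9%, taking the libraries as listed. The 7 of 10 in E20_1 library 1 is thus no larger than the share of the 307 there.

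All 10 identifiers had a lower mean level in E20_2 than in E20_1, and none passed the edgeR test after adjustment. By comparison, 7935 of the 16045 identifiers tested (49.5%) were lower in E20_2 by any amount. The 307 identifiers of the same choice moved alike: 34% of their values lay in the exmc range in E20_1 and 68.6% in E20_2, against 32.5% and 65% for the 10. A lower level in E20_2 is therefore not particular to the 10. The median log2 fold change of the 10 was −1.03, against 0.01 over all identifiers. For 7 of the 10 the unadjusted p was under 0.05, while 744 of all identifiers (4.64%) were lower at that level. No identifier of the table passed the adjusted threshold with edgeR (0 of 16045, 0%), with 1064 at an unadjusted p under 0.05. DESeq2 called 23 of 23092 identifiers and limma 0 of 16045, and neither called any of the 10.

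Of the 10 log2 fold changes, that of ENSMFAG00000038514 was the largest, at −1.38 (SE 0.478, edgeR adjusted p = 0.712). ENSMFAG00000000240 had the smallest unadjusted p and a log2 fold change at −1.27 (SE 0.367, edgeR adjusted p = 0.712). ENSMFAG00000038360 differed least, at −0.40 (SE 0.325, edgeR adjusted p = 0.940). The levels of ENSMFAG00000038360 were 109, 76.7, 128 and 43.9 CPM in E20_1 and 85.5, 68.8, 80.8 and 38.7 CPM in E20_2, which overlapped. None of the 10 separated the 2 sets without overlap, a separation found with E20_2 lower for 255 of 7168 identifiers (3.56%). Much of the difference rested on E20_1 library 1. Without it all 10 stayed lower in E20_2, but the median log2 fold change was −0.56 and 1 of the 10 had an unadjusted p under 0.05. Leaving out E20_2 library 4 or library 2 instead left 3 and 4 at that level. Because the 10 identifiers move together across libraries, their shared direction is not 10 separate observations.

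**Figure D2:**
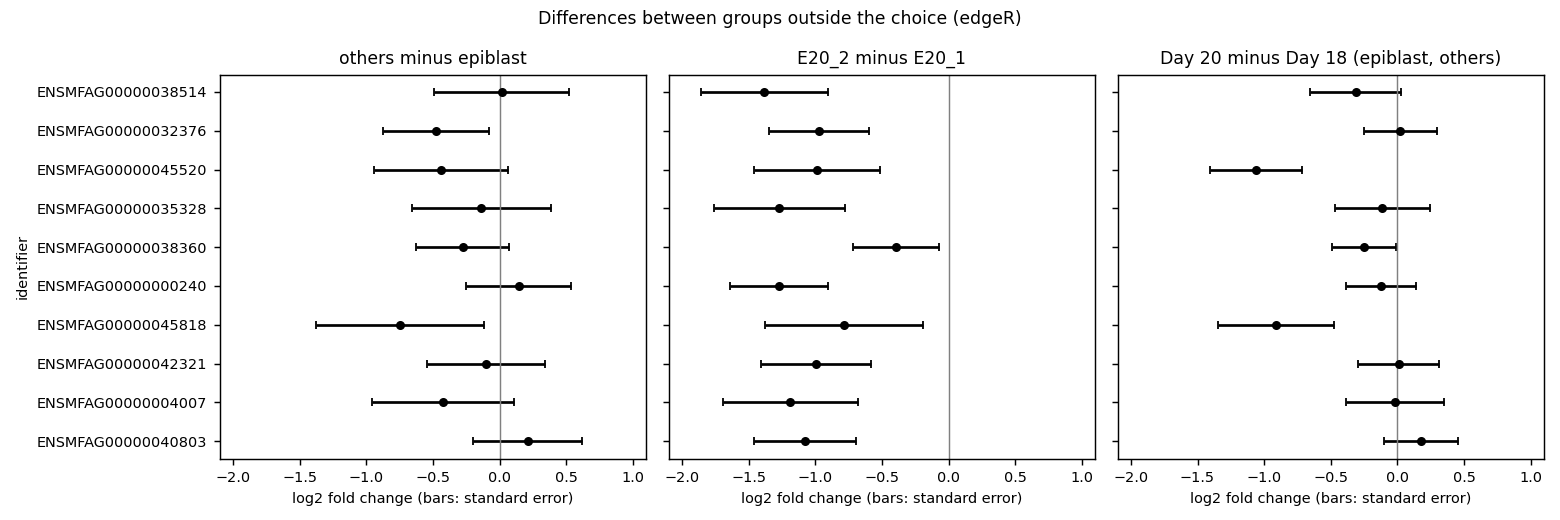
Log2 fold changes of the 10 identifiers (horizontal axis) with standard errors as bars, from edgeR over the 15 libraries of epiblast, others, E20_1 and E20_2, in 3 comparisons. All 10 lie below 0 for E20_2 against E20_1, from −1.38 to −0.40, whereas the other panels hold values on both sides of 0.

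Against epiblast and others of Day 18, the Day 20 libraries as a whole did not differ for any of the 10 identifiers after adjustment. The Day 20 labels name no region, so age and region cannot be told apart here. With edgeR 18 of 16045 identifiers passed (0.112%), 10 higher and 8 lower at Day 20, and none was among the 10. DESeq2 called 305 of 23092 and limma 44 of 16045, and again none was among the 10. ENSMFAG00000045520 was at 525, 335 and 368 CPM in epiblast and at 329, 410.4, 302 and 159 CPM in others. Its Day 20 levels were 526, 155, 152 and 97.6 CPM in E20_1 and 138, 154, 122 and 61.7 CPM in E20_2. Thus 7 of the 8 Day 20 libraries lay below all 7 Day 18 libraries, and E20_1 library 1 stood level with the highest of them, epiblast library 1. The log2 fold change was −1.06 (SE 0.346, edgeR adjusted p = 0.312), and it was −1.47 without E20_1 library 1. For ENSMFAG00000045818 the log2 fold change was −0.91 (SE 0.434, edgeR adjusted p = 0.509). Its Day 20 levels were 118, 301, 179 and 69.8 CPM in E20_1 and 216, 59.9, 75.2 and 39.6 CPM in E20_2, which overlapped with Day 18. The other 8 had log2 fold changes between −0.31 and 0.18, the highest being that of ENSMFAG00000040803 (0.18, SE 0.278, edgeR adjusted p = 0.891), which was −0.11 without E20_1 library 1. This comparison and that between the Day 20 sets use the same 8 Day 20 libraries.

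The Day 16 library, which has no replicate, divided the 10 identifiers. ENSMFAG00000045520 stood at 551 CPM there, the highest of the 16 libraries outside the choice. ENSMFAG00000035328 stood at 143 CPM, second of those 16 and within the hypoblast range of 117 to 204 CPM. ENSMFAG00000000240 (194 CPM) and ENSMFAG00000032376 (225 CPM) lay between the exmc and hypoblast ranges. ENSMFAG00000004007, in contrast, stood at 40.2 CPM, below all 24 other libraries. ENSMFAG00000045818 at 30.8 CPM and ENSMFAG00000042321 at 62.8 CPM were the lowest of the 16 libraries, and ENSMFAG00000038514 at 76.7 CPM and ENSMFAG00000040803 at 283 CPM ranked 15th of 16. ENSMFAG00000038360 stood at 49.2 CPM, 14th of 16. Counts in this library ran from 124 for ENSMFAG00000045818 to 2221 for ENSMFAG00000045520. They include amplification copies, so the number of molecules behind the low values is not known. The number of detected identifiers was the lowest of the 16 libraries here, and its part in these values was not tested.

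**Figure D3:**
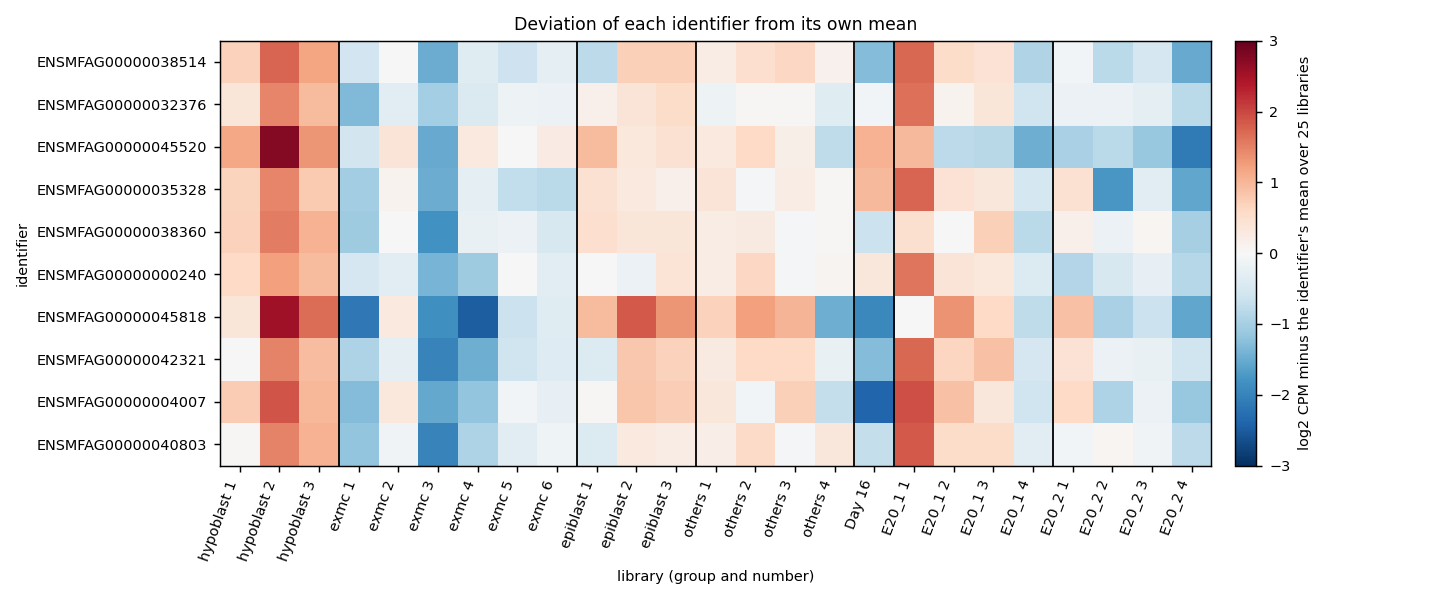
Log2 CPM of each identifier (vertical axis) in each of the 25 libraries (horizontal axis) minus that identifier's own mean over the 25 libraries, on a colour scale centred on 0. Hypoblast library 2 and E20_1 library 1 are high and exmc library 3 and E20_2 library 4 low for nearly all identifiers, while the Day 16 column holds both signs.

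Across the 16 libraries outside the choice, the levels of the 10 identifiers varied together. Spearman's rho was above 0 for all 45 pairs, with a median of 0.603, and it was above 0.5 for 27 pairs. Over all pairs of the 7277 identifiers whose mean reached 20 CPM the median was 0.009. Over the 46971 pairs of the 307 identifiers that pass the same choice it was 0.409, so part of this level is shared by identifiers with that pattern. These correlations are descriptions with no test, since the libraries share depth, detection and region differences. They were concentrated at Day 20. Over the 8 Day 20 libraries the median over the 45 pairs was 0.762 (0.619 for the 307). Over the 7 libraries of epiblast and others it was 0.214, with 28 pairs above 0, the same median of 0.214 as for the 307. Once each group's mean was subtracted, the median over 15 libraries was 0.507, with 44 of 45 pairs above 0.

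The 10 identifiers were not equally close. ENSMFAG00000038514 had the highest rho with ENSMFAG00000042321 (0.918), and ENSMFAG00000042321 had a rho of 0.868 with ENSMFAG00000004007 and of 0.826 with ENSMFAG00000040803. The lowest value was 0.179, between ENSMFAG00000035328 and ENSMFAG00000040803. ENSMFAG00000045520, ENSMFAG00000035328 and ENSMFAG00000000240 had the lowest median rho with the other members, at 0.426, 0.462 and 0.479. These 3 are among the 4 that were not low in the Day 16 library. ENSMFAG00000032376, the fourth, had a median rho of 0.685 and a lowest rho of 0.576. Without the Day 16 library the median over all pairs was 0.629 and the lowest 0.332.

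**Figure D4:**
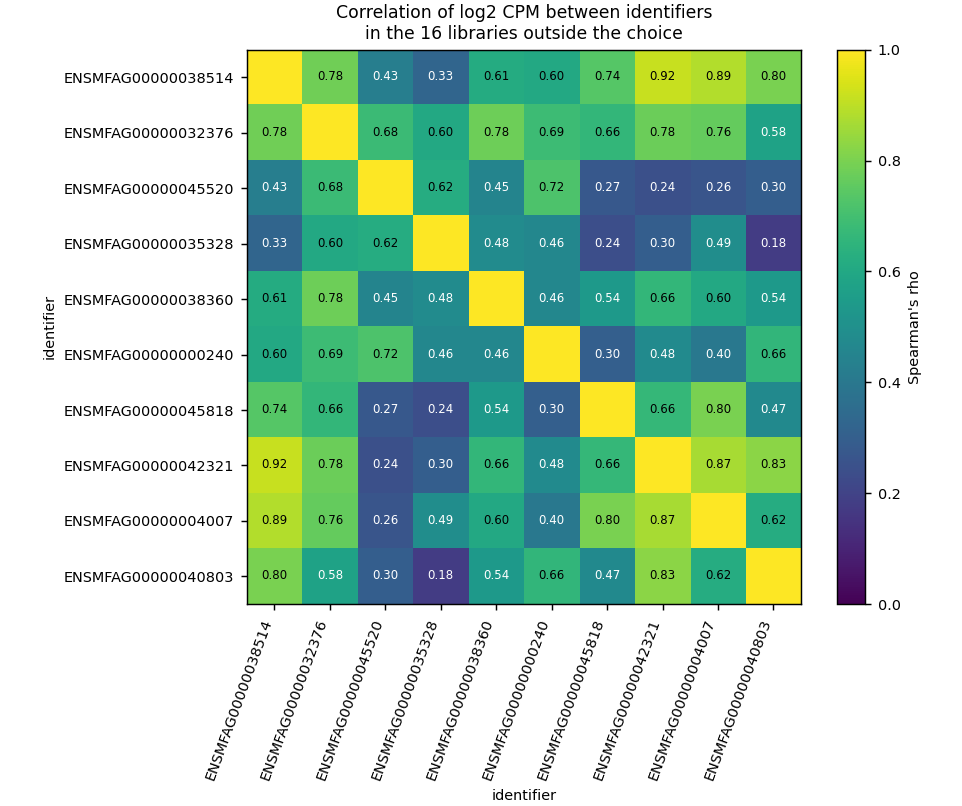
Spearman's rho of log2 CPM between each pair of the 10 identifiers over the 16 libraries of epiblast, others, Day 16, E20_1 and E20_2; colour and printed values give rho. Every pair lies above 0, from 0.18 to 0.92, and the lower values gather in the rows of ENSMFAG00000045520 and ENSMFAG00000035328.

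Some other identifiers followed the mean of the 10 more closely than some of the 10 did. Likeness was measured as Pearson's r over the 16 libraries between log2 CPM and the mean standardised log2 CPM of the 10. The closest were ENSMFAG00000033089 (r = 0.987), ENSMFAG00000043654 (r = 0.964) and ENSMFAG00000041098 (r = 0.960). ENSMFAG00000033089 had a hypoblast mean of 209 CPM (SD 55.6, n = 3) and an exmc mean of 109 CPM (SD 48.5, n = 6), and these groups just overlapped. The other 2 passed the choice without being among the 10. All 3 were highest in E20_1 library 1 and lowest in E20_2 library 4 among the 16 libraries. Of the 7267 identifiers outside the 10, 953 had a higher r than the lowest of the 10 (0.636), which was itself part of the mean.

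The combined level of the 10, taken as the mean of their standardised log2 CPM over 25 libraries, put E20_1 library 1 (1.62 SD units) between hypoblast libraries 2 (1.93) and 3 (1.21). Epiblast library 3 and hypoblast library 1 stood level at 0.597. At the low end were exmc library 3 (−1.82), E20_2 library 4 (−1.30) and exmc library 1 (−1.17). Together the 10 took from 0.0530% of all counts (exmc library 3) to 0.679% (hypoblast library 2), with 0.555% in E20_1 library 1.

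Over the 16 libraries outside the choice, the levels of the 10 had no relation to depth that passed after adjustment. Pearson's r of log2 CPM with log10 total counts ran from −0.40 for ENSMFAG00000045520 (permutation p = 0.126, adjusted p = 0.464) to 0.47 for ENSMFAG00000040803 (permutation p = 0.0655, adjusted p = 0.369). Their rho was −0.30 (permutation p = 0.263, adjusted p = 0.806) and 0.512 (permutation p = 0.0452, adjusted p = 0.580). Of the 10, 8 were above 0, with a median r of 0.152, close to the 0.129 over all 7277 identifiers. None of the 7277 passed after adjustment (0%), with 1072 at an unadjusted p of r under 0.05, none of them among the 10. Without the libraries farthest from the median depth (others library 3 and Day 16), 5 of the 10 were above 0 and the median r was −0.02. The median r was 0.034 within the 7 Day 18 libraries, with a range from −0.42 to 0.77 (ENSMFAG00000040803). Within the 8 Day 20 libraries it was 0.102, with a range from −0.15 to 0.51 (ENSMFAG00000000240). None of the 10 passed in either. When the hypoblast and exmc libraries were added, the median r became 0.538, all 10 were above 0 and 6 of the 10 passed, where 859 of 7429 identifiers passed (11.6%). That larger value includes the groups that chose the identifiers and differ in depth, so it supports nothing about depth alone.

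The number of detected identifiers showed a relation for 2 of the 10. ENSMFAG00000042321 had an r of 0.70 (permutation p = 0.00222, adjusted p = 0.0402) and a rho of 0.518 (adjusted p = 0.232). ENSMFAG00000004007 had an r of 0.70 (permutation p = 0.00233, adjusted p = 0.0406) and a rho of 0.632 (adjusted p = 0.142). By r, 607 of 7277 identifiers passed (8.34%), and by rho none did. Next came ENSMFAG00000038514 (r = 0.58, adjusted p = 0.0941) and ENSMFAG00000045818 (r = 0.58, adjusted p = 0.0908), and the lowest was ENSMFAG00000045520 (r = −0.26, adjusted p = 0.498). The median r of the 10 was 0.339, against 0.142 over all identifiers.

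Neither call held without the Day 16 library, which had the fewest detected identifiers of the 16. Without epiblast library 1 and Day 16, the 2 farthest from the median, r was 0.48 (adjusted p = 0.351) for ENSMFAG00000042321 and 0.62 (adjusted p = 0.221) for ENSMFAG00000004007. Without Day 16 alone, r was 0.55 and 0.51 and neither passed, while 6 identifiers of the table did. Within the 7 Day 18 libraries, r was 0.82 for ENSMFAG00000042321 (exact permutation p = 0.0323, adjusted p = 0.353) and 0.50 for ENSMFAG00000004007. Within the 8 Day 20 libraries they were 0.49 and 0.68, and neither passed. Both tests covered 7277 identifiers for each of 2 measures, with p-values adjusted within a measure.

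**Figure D5:**
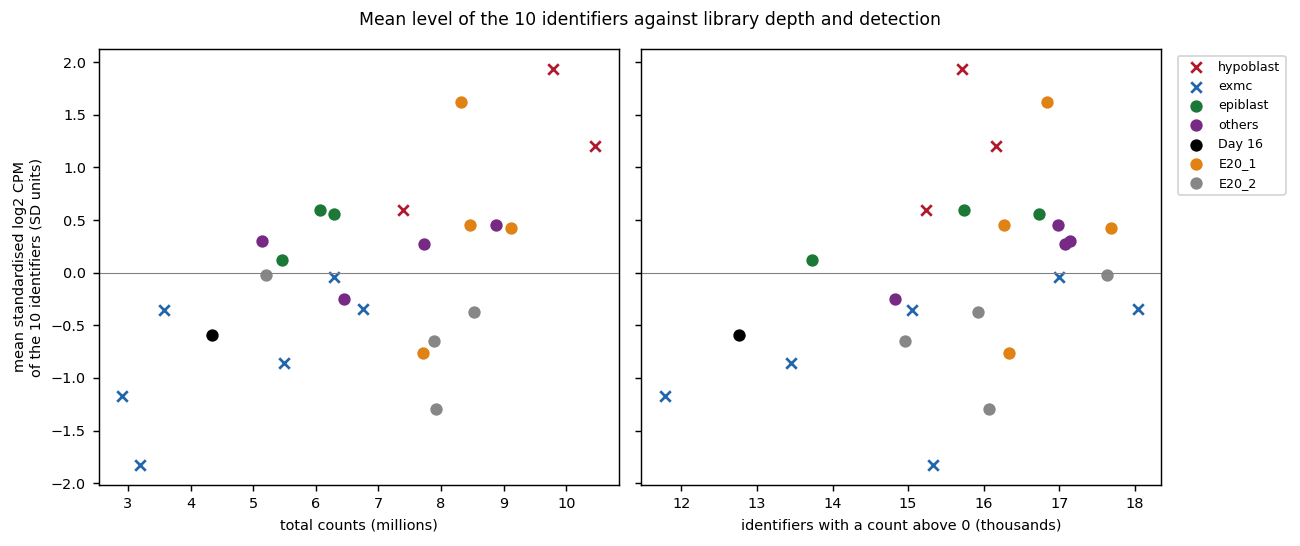
Mean standardised log2 CPM of the 10 identifiers (vertical axis, SD units) against total counts and against the number of identifiers with a count above 0; crosses are the hypoblast and exmc libraries that chose the identifiers and circles the other 16. Among the circles, E20_1 library 1 (1.62) and E20_2 library 4 (−1.30) lie far apart at similar depth, and the Day 16 library lies at the left of both panels.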

How the data were processed

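The deposited file is a table of read counts per Ensembl identifier in 25 libraries, whole numbers that were not normalised; 0 of its columns lacked a sample. Per the submitters' processing notes, STAR 2.3.4 and RSEM were used, without a stated role. The genome build, annotation and strand setting of the counting were not given in the sources used here. Per the labels' protocol the libraries were made with Smart-seq2, and the table shows no molecular identifiers, so counts include amplification copies.

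Counts were normalised by TMM and tested with edgeR 4.0.16 (quasi-likelihood, filterByExpr, Benjamini-Hochberg adjustment over all identifiers tested, two-sided) in R 4.3.3 over the 15 libraries of epiblast, others, E20_1 and E20_2. DESeq2 1.42.0 and limma 3.58.1 (voom with quality weights, which give outlying libraries less weight) were the alternatives. Correlations used log2 CPM with a prior count of 2, a mean of at least 20 CPM and two-sided permutation tests (100000 resamples, exact within ages). These were computed with numpy 2.4.6, with ranks from scipy 1.17.1. The tests were tested on simulated data. The simulated counts had a smaller spread between libraries and larger changes than those of the 10 here, so power at the spread of these libraries was not tested. The contrast of hypoblast with exmc chose the identifiers: it was fitted to count calls over the whole table, and no test of it is given for the 10. Identifiers named are the 10 and the 3 others with the highest r with their mean. The 10, the lists and the tests were chosen with earlier results of these data known. Alternatives covered normalisation, filters, test tool, single libraries left out, the replicate number as a block, and libraries included.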

Additional observations from a re-analysis of the deposited data

Results flagged for a closer look

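ENSMFAG00000045520 in E20_1 library 1 stood at 526 CPM, far from the other 3 libraries of that set, which held 97.6 to 155 CPM. The gap to the nearest library was 0.865 of the whole range, above Dixon's critical value of 0.829 for 4 libraries. Of 40 sets of values examined (10 identifiers in 4 groups), 1 was found, where chance alone gives about 2. E20_1 library 1 was also the highest of its set for 8 of the 10 identifiers.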

How the results depend on the processing

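Across other normalisations, filters and tools, 223 of 240 fold changes of the 10 kept their direction; the 17 that changed sign were smaller than their standard error. All 10 remained lower in E20_2 under every setting run, and none of the 10 passed in the 3 comparisons of groups outside the choice. Calls over all identifiers varied with the tool: DESeq2 gave 54 for others against epiblast, 23 for E20_2 against E20_1 and 305 for Day 20 against Day 18, where limma gave 44. For hypoblast against exmc edgeR called 0 (1140 at an unadjusted p under 0.05), DESeq2 125 and limma 61.

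Leaving out single libraries moved the calls for Day 20 against Day 18 between 10 and 19 (10 without epiblast library 1, 11 without E20_1 library 3), the E20 members at an unadjusted p under 0.05 between 1 and 8, and the median rho between 0.532 and 0.643. The log2 fold change of ENSMFAG00000040803 for Day 20 against Day 18 ran from −0.11 (without E20_1 library 1) to 0.29 (without E20_1 library 4). The median rho was 0.553 with DESeq2 size factors, 0.682 as Pearson's r, 0.76 over all 25 libraries and 0.507 about group means. With all 25 libraries, 859 identifiers and 6 of the 10 passed for total counts (ENSMFAG00000045520 at r = 0.20), and 1696 for detected identifiers. Without Day 16, 5 of the 10 were above 0 for total counts, and 6 identifiers and 0 of the 10 passed for detected identifiers; a mean of at least 1 CPM gave 1061. Leaving out hypoblast or exmc libraries, and both correlations without E20_1 library 1, were added after seeing the data.

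Between epiblast and others, same-numbered deviations from the group means correlated at 0.003, 0.012 and −0.198. Differently numbered ones ran from −0.233 to 0.393. With so few libraries per group these values cannot decide whether the numbers mark pairs. For E20_1 and E20_2 the same-numbered deviations correlated at 0.496, −0.208, −0.175 and 0.650 for numbers 1 to 4. The values for numbers 1 and 4 were above those of every differently numbered pair (highest 0.360), so pairing remained unclear there. With the replicate number as a block, 0, 0 and 30 identifiers passed in the 3 comparisons, none of them among the 10, 5 of the 10 were lower in others than in epiblast, and 8 of the 10 had an unadjusted p under 0.05 between the Day 20 sets.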
